A study of Mus musculus with 2 samples.

Results

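Cycling B cells of the inflamed mouse colon were taken from 2 single-cell libraries of colon-infiltrating immune cells, 1 from WT and 1 from CKO mice of the C57BL/6 strain with experimental colitis. A cell was a member when it had at least 200 detected genes, at most 20% of its unique molecular identifiers (UMIs, each marking 1 captured transcript) from mitochondrial genes, 3 or more UMIs over Cd79a, Cd79b and Ms4a1, no UMI of Cd3d, Cd3e or Cd3g, under 5 UMIs over S100a8 and S100a9, under 20 UMIs of Jchain, and 2 or more UMIs over Mki67 and Top2a. The rule found 138 members among 14080 kept cells, 50 of 2925 in WT and 88 of 11155 in CKO. They lay within 5801 cells that met the B cell conditions, here called B-gated, and the other 5663 of these, with fewer than 2 UMIs of Mki67 and Top2a, served for comparison. The series is about loss of RPA1, a subunit of the single-stranded DNA binding complex replication protein A, and about T cells. Neither the labels nor the design text names the driver of the deletion, the deleted exons, the agent that caused colitis, or the age and number of the mice. Each condition is 1 library, so no difference between WT and CKO was tested, each interval is a 95% interval for counting error alone, and genotype, animal and library cannot be told apart.

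B cells divide outside the bone marrow mainly after antigen and helper signals. In germinal centres, which form in the lymphoid follicles of the gut wall, B cells alternate between division with antibody gene mutation and selection by T cells, and many replace the IgM heavy chain constant region with that of IgG or IgA. Activated B cells can also divide before or outside a germinal centre, and plasmablasts divide while they begin to secrete antibody. Mki67 encodes the proliferation antigen Ki-67, which coats mitotic chromosomes, and Top2a encodes the topoisomerase that untangles replicated DNA.

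The libraries held 2972 barcodes and 18627050 UMIs in WT, and 11311 barcodes and 57740083 UMIs in CKO. Cycling B cells had a median of 12290 UMIs and 3009 genes in WT and of 10012.5 UMIs and 2709.5 genes in CKO, against 3983 and 3050 UMIs in the other B-gated cells. In sum the members held 669968 UMIs in WT and 1059800 in CKO. The median mitochondrial share of the members was 3.55% in WT and 3.58% in CKO. The libraries shared 6 barcodes, none of them a member's.

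The members were chosen by their UMIs of Mki67, Top2a and the B cell genes, so those values are a description. Mki67 and Top2a had a median of 9 UMIs per member in WT and 4 in CKO, with a highest value of 55 and 112. The members divided into clear and marginal cells. In WT 27 of 50 members and in CKO 32 of 88 had 8 or more UMIs of the pair, while 15 and 31 had the minimum of 2. Against the other B-gated cells of its library, a member's share of UMIs in the S phase and G2 and M gene lists lay above their 99th percentile in 30 of 50 WT members and in 35 of 88 CKO members. That was so for 27 of 27 and 31 of 32 members with 8 or more UMIs, and for none with 2. Just outside the threshold, the 81 WT and 246 CKO cells with a single UMI of the pair had median shares of 0.208% and 0.178%, and just inside it the members with 2 UMIs had 0.178% and 0.187%. The marginal members thus did not stand apart from cells outside the rule by these lists, whose UMIs come from the same cells as the rule.

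B cell genes were present in the members of both libraries, in part because the rule required them. Markers of another class were also present in 7 WT and 19 CKO members, described below. Cd79a, a signalling chain of the B cell receptor that the rule also read, had a UMI in 50 of 50 WT and 86 of 88 CKO members. Of 21 B cell identity genes, 5 in WT and 6 in CKO were at least 1.5-fold lower in cycling than in other B-gated cells and 2 and 1 were higher. Of all genes 18.1% in WT and 14.5% in CKO were lower, and 25.5% and 31.4% were higher. This contrast belongs to the rule and is given as a description. At the B cell threshold, 2 WT and 14 CKO cells with 3 to 5 UMIs of the 3 B cell genes lay just inside, and 4 and 20 cells that met every other condition, with 1 or 2 UMIs, just outside. Jchain, the chain that joins IgA and IgM into polymers, had a median of 3 UMIs in WT members (highest 17) and of 0 in CKO members (highest 5).

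Genes of DNA replication and mitosis set the members apart most. A gene was read in a comparison where it had 20 or more UMIs in sum, and called where it differed by at least 1.5-fold in CPM (UMIs of the gene per 1000000 UMIs of the class). The 29 G2 and M regulators read in WT had a median log2 ratio of cycling over other B-gated cells of 4.36, with 28 higher, and all 30 read in CKO were higher, with a median of 4.20. Over all genes 25.5% were higher and 18.1% lower in WT, and 31.4% higher and 14.5% lower in CKO, with medians of 0.09 and 0.19. Under median-of-ratios scaling, which lowers each log2 ratio by 0.22 in WT and 0.24 in CKO, the split was 1654 higher against 2463 lower genes in WT and 2415 against 2581 in CKO, compared with 2322 against 1646 and 3394 against 1567 as reported.

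Spindle, kinetochore and cytokinesis genes were higher in 45 of 45 and 45 of 46 read, with medians of 4.18 in WT and 3.96 in CKO. Hmmr, a spindle assembly protein, was at 79.1 CPM in cycling and 0.602 in other B-gated cells of WT, and at 50.01 and 0.0615 in CKO. Cenpf, a kinetochore protein of late G2 and mitosis, was at 179 and 1.61 in WT and at 90.6 and 0.553 in CKO. Both mitotic genes were scarce in B-gated cells outside the rule in either library.

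Replication genes were higher by less. The S phase list was higher in 33 of 34 genes read in WT and 34 of 35 in CKO, with medians of 2.79 and 2.69, and the regulators of G1 to S in 27 of 29 and 30 of 32, with medians of 2.74 and 2.90. E2f8, an atypical E2F factor that represses E2F targets late in S phase, was at 52.2 CPM in WT members and at 0 in the other WT cells, and at 35.9 and 0.0615 in CKO. Cdc6, which loads the replicative helicase at origins, was at 32.8 against 0.201 in WT and 34.9 against 0.430 in CKO.

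The 250 bases before the RefSeq start of these 4 genes (build GRCm38.p6) are shown because they carry the leading contrast. They were searched on both strands for the cell cycle homology region (CHR) element of mitotic genes, TTTGAA or TTCGAA, for the CCAAT box, and for an E2F site, TTTGGCGC or TTTCCCGC. Each line runs 5′ to 3′ in the direction of the gene, with motif letters in capitals. A CCAAT box on the other strand reads ATTGG. The E2f8 window lies on the minus strand at chr7:48881597-48881846 and holds 1 CHR element and 1 CCAAT box, both on the other strand. The Cdc6 window lies on the plus strand at chr11:98907901-98908150 and holds 1 E2F site on the other strand. The GENCODE annotation starts Cdc6 earlier, at 98907801, so this window lies inside the gene by that annotation. That of Hmmr, on the minus strand at chr11:40733438-40733687, holds 5 CCAAT boxes on the other strand, and that of Cenpf, on the minus strand at chr1:189688087-189688336, holds 2 as printed.
E2f8: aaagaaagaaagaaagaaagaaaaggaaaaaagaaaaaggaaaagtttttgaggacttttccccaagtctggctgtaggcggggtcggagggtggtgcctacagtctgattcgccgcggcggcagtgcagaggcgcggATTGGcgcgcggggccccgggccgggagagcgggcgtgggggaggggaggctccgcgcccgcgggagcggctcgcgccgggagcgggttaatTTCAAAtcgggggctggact
Cdc6: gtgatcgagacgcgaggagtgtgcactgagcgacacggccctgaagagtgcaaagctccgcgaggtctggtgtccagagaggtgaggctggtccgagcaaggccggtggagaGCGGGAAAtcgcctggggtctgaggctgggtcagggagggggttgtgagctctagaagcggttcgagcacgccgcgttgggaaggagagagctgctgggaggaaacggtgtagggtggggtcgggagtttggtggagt
Hmmr: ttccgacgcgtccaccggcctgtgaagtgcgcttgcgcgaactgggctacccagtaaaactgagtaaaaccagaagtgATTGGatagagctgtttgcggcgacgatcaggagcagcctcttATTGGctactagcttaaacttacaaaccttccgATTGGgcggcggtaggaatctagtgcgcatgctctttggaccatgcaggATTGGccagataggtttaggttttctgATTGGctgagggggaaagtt
Cenpf: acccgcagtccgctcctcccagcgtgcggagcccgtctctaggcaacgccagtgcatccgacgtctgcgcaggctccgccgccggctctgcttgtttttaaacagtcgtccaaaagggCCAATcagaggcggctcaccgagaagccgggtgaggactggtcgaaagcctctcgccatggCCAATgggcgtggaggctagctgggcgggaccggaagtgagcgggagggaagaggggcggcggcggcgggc

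Over all 32851 RefSeq windows of this length, 17.1% held a CHR element, 33.8% a CCAAT box and 1.30% an E2F site. Of the genes of the G2, M and spindle lists, 71 of 84 had a window, and 25 of these (35.2%) held a CHR element, 48 (67.6%) a CCAAT box and 3 (4.23%) an E2F site. Of the G1 to S and S phase lists, 53 of 67 had one, and 10 (18.9%), 32 (60.4%) and 12 (22.6%) held the motifs in that order. E2F sites had their highest share in the replication lists and CHR elements in the mitotic lists. A match is a description of the letters, and its absence says only that they are not in this window.

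Histone genes, whose transcripts rise in S phase, were higher in 17 of 19 and 19 of 20 read, with medians of 2.62 in WT and 2.53 in CKO. Hist1h1b, a linker histone, was at 657 CPM against 24.9 in WT and at 601 against 14.8 in CKO. Condensin, cohesin and chromatin genes were higher in 20 of 20 in each library, with medians of 1.88 and 1.63. Pclaf, which binds the replication clamp PCNA, led the genes outside the cycle lists at 675 against 3.61 in WT and 519 against 1.17 in CKO. Cdca7, a chromatin regulator induced at S phase entry, was at 80.6 in WT and 64.2 in CKO members.

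Energy and nucleotide genes were higher in the members as well. One-carbon and nucleotide synthesis genes were higher in 19 of 23 in WT and 20 of 23 in CKO, with medians of 1.06 and 1.14, and oxidative phosphorylation genes in 20 and 23 of 26, with medians of 0.79 and 0.98. Glycolysis genes were higher in 9 and 13 of 15, with medians of 0.95 and 1.46. Gapdh, a glycolytic enzyme, was at 1314 CPM in WT members and 1312 in CKO members, against 460 and 388 in the other cells. Npm1, a nucleolar chaperone of ribosome assembly, was at 1772 and 2316 against 1040.3 and 1089. The list medians stayed above the scaling shift of 0.22 to 0.24.

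Resting-state genes were lower in the members. Of 16 naive or resting B cell genes, 12 in WT and 9 in CKO were lower and none was higher, with medians of −1.22 and −0.63. Klf2, a quiescence and trafficking factor, was at 140 CPM in WT members against 598 in other cells and at 75.5 against 254 in CKO. Satb1, a chromatin organiser, was at 202 against 821 and at 243 against 833, and Cd69, an early activation and retention receptor, at 158 against 416 and at 109 against 295. Immediate early genes were lower in 15 of 19 and 13 of 19, with medians of −0.89 and −0.75. Myc, the growth regulator, was at 52.2 against 127 in WT and at 35.9 against 77.9 in CKO.

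**Figure D1:**
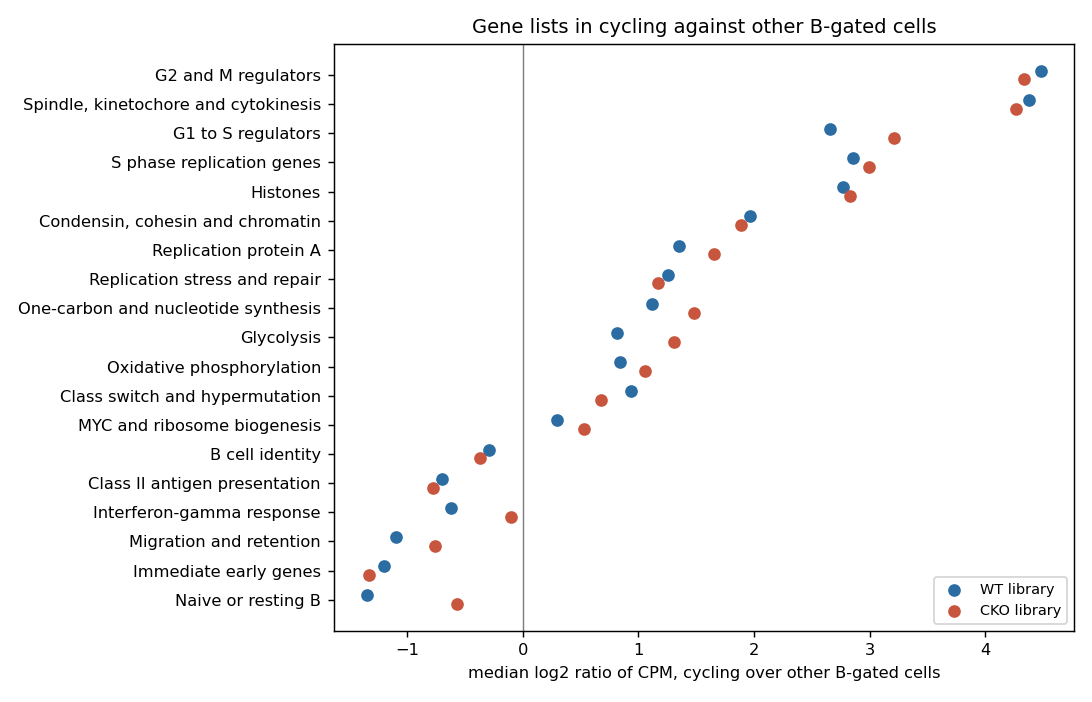
Median log2 ratio of CPM, cycling over other B-gated cells (horizontal axis), for 19 gene lists (vertical axis), in the WT (blue) and CKO (red) library, without cells carrying markers of another class. Mitotic lists sit furthest right at 4.26 to 4.48 and naive or resting genes at −1.35 in WT and −0.57 in CKO.

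The plot of list medians by library shows the same order of cycle lists in WT and CKO, apart from G1 to S, which lay below S phase in WT and above it in CKO. The naive and interferon-gamma lists lay lower in WT. By cell, S list UMIs equalled or exceeded G2 and M list UMIs in 22 of 50 WT members (44.0%, 29.99 to 58.7%) and 36 of 88 CKO members (40.9%, 30.5 to 51.9%). Among members above the 99th percentile and without other-class markers, they did so in 10 of 27 (37.0%, 19.4 to 57.6%) and 8 of 33 (24.2%, 11.1 to 42.3%), and the intervals overlapped in both readings.

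Part of the members carried transcripts of another cell class. Droplets with 5 or more UMIs of 1 marker list of another class numbered 7 of 50 in WT (3 dendritic, 2 NK, 1 T, 1 monocyte and macrophage) and 19 of 88 in CKO (15 monocyte and macrophage, 3 NK, 1 epithelial). The 5-UMI limit was chosen after these values were seen. The 6 monocyte and macrophage markers summed to 101 CPM in WT members, where the complement genes C1qa and C1qb were at 0, and to 1131 in CKO members. The 15 CKO droplets had a median of 3 UMIs of Mki67 and Top2a, and none lay above the 99th percentile of the cycle lists. The epithelial list summed to 1.49 and 200 CPM, of which 1 CKO droplet gave 205 of 212 UMIs. For the T, NK, dendritic, neutrophil, mast and stroma lists the sums were 64.2 and 54.7, 65.7 and 83.0, 59.7 and 21.7, 1.49 and 15.1, 1.49 and 3.77, and 50.7 and 60.4, and the erythroid list was at 0. Without these droplets 43 WT and 69 CKO members remained, and values for them are given below for most gene lists and for part of the genes.

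Cycling cells made up 4.31% of B-gated cells in WT (50 of 1161, 3.21 to 5.64%) and 1.90% in CKO (88 of 4640, 1.52 to 2.33%). Without other-class droplets the counts were 43 of 1144 (3.76%, 2.73 to 5.03%) and 69 of 4523 (1.53%, 1.19 to 1.93%). A second reading thinned each cell to 1000 UMIs, which left out 29 and 32 cells, and counted cells with 1 or more UMIs of the pair in place of 2. It gave 4.15% (3.07 to 5.48%) and 2.54% (2.10 to 3.04%). The share was lower in CKO in these 3 readings, with intervals that did not overlap. With a Jchain limit of 5 UMIs it was 28 of 994 in WT (2.82%, 1.88 to 4.05%) and 87 of 4601 in CKO (1.89%, 1.52 to 2.33%), and those intervals overlapped. T-gated cells (3 or more Cd3d, Cd3e and Cd3g UMIs, none of the B cell genes) with 2 or more UMIs of the pair were 14 of 319 in WT (4.39%) and 101 of 649 in CKO (15.6%), and 4.09% and 10.0% with 1 or more UMIs after thinning. Jchain-high cells (20 or more Jchain UMIs) with the pair were 14.2% and 15.0%, or 4.65% and 7.08% in the thinned reading. Of all kept cells the members were 1.71% and 0.789%.

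Germinal centre genes differed most between the libraries. All 10 genes of the germinal centre list were at least 1.5-fold lower in CKO than in WT cycling B cells, with a median log2 ratio of −3.93 (−3.56 without other-class droplets). The median was −2.30 with each cell thinned to 2000 UMIs and −1.57 with a Jchain limit of 5 UMIs. Over all 7062 genes read, 13% were lower and 17.2% higher in CKO, with a median of 0.01. The list was fixed with earlier results of these data known, so its direction is not independent evidence. In a tissue sample with 1 library a group, fewer cells of a type and less RNA per cell cannot be told apart from the sums alone, and the counts of cells follow.

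Rgs13, a regulator of chemokine receptor signalling in germinal centre B cells (chr1:144138654-144177372, minus strand, GENCODE annotation of GRCm38), had 81 UMIs in 14 WT cells and 0 in CKO. With the floor of 3 UMIs in all CKO members set in place of 0, it was lower by 5.42 on the log2 scale. All members with an Rgs13 UMI were thus WT cells.

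Mybl1, the A-MYB factor of dividing germinal centre cells (chr1:9667415-9700209, minus strand), had 74 UMIs in 22 WT cells and 2 in CKO, a log2 ratio of −5.87 (−8.94 to −3.97). Nuggc, a nuclear GTPase of germinal centre B cells (chr14:65598546-65648531, plus strand), had 46 UMIs in WT and 1 in CKO (−6.19, −11.52 to −3.64). S1pr2, the receptor that keeps B cells in the follicle (chr9:20962361-20976781, minus strand), had 44 and 2 (−5.12, −8.21 to −3.18). These 3 genes had a UMI in 22, 21 and 18 of 50 WT members and in 2, 1 and 2 of 88 CKO members. Gcsam, an adaptor that limits germinal centre B cell motility, had 25 and 0 UMIs and was lower by 3.72 with the same floor in place of 0.

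Mef2b, a transcription factor upstream of Bcl6, was at 115 CPM in WT and 10.4 in CKO members (−3.47), with a UMI in 26 and 10 cells. Basp1, a membrane protein that marks germinal centre cells but is also made by myeloid cells, was at 481 and 68.9 (−2.80), and 46.6% of its CKO UMIs lay in other-class droplets. Bcl6, the master repressor of the germinal centre state (chr16:23965052-23988852, minus strand), was at 65.7 and 18.9 (−1.80), and Fas, a death receptor raised on germinal centre B cells, at 58.2 and 27.4 (−1.09). Bcl6 and Fas had the smallest ratios of the list, and that of Fas was 0.98 after thinning to 2000 UMIs and −0.10 with the Jchain limit of 5. In other B-gated cells Bcl6 was at 27.1 and 22.4 CPM in WT and CKO, and 7 of 10 genes of the list were lower in CKO with a median of −2.76, where 6.73% of 10994 genes were lower. Without other-class droplets 8 of 10 were lower there, at a median of −2.70, beside 7.32% of all genes.

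**Figure D2:**
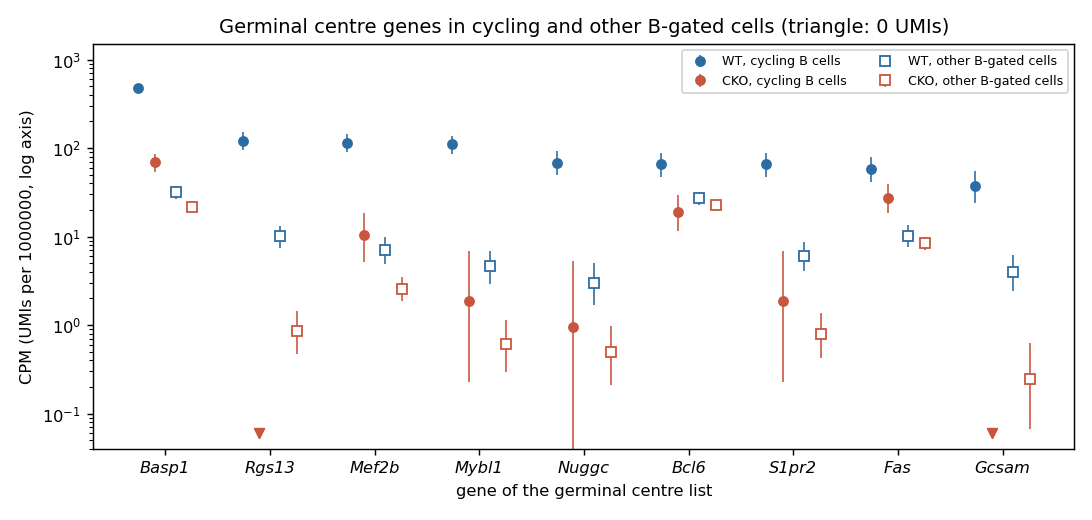
CPM (log axis) of 9 of the 10 germinal centre genes (horizontal axis) in cycling (filled) and other (open) B-gated cells of the WT (blue) and CKO (red) library, with exact Poisson 95% intervals for counting error. WT cycling cells are the highest of the 4 classes for each gene drawn, and Rgs13 and Gcsam have 0 UMIs in CKO cycling cells, drawn as triangles at the foot of the axis.

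Per cell, 30 of 50 WT members (60.0%, 45.2 to 73.6%) had a UMI of 3 or more of the 10 genes, against 6 of 88 CKO members (6.82%, 2.54 to 14.3%). In WT 25 members had 5 or more of the genes and the highest had 10, while the 6 CKO members had exactly 3. Without other-class droplets the counts were 26 of 43 (60.5%, 44.4 to 75.0%) and 4 of 69 (5.80%, 1.60 to 14.2%). Without Basp1 and Fas, which other classes also express, they were 27 of 50 (54.0%) and 1 of 88 (1.14%). The cut of 3 genes was chosen after values were seen.

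T-gated cells, which should lack most of the list, gave 3 of 319 in WT (0.940%) and 16 of 649 in CKO (2.47%) with 3 or more genes, at median depths of 4791 and 4646 UMIs, and 0 of each without Basp1 and Fas. Cycling T-gated cells, at 12193 and 10896 UMIs, gave 0 of 14, which allows a share of up to 21.4%, and 6 of 101 (5.94%). The CKO share in cycling B cells was thus near that in cycling T-gated cells of the same library, and the WT share was far above any T-gated value. Thinned to 1000 UMIs, 44.0% of WT and 13.6% of CKO members kept a UMI of at least 1 gene, beside 16.0% and 15.0% of T-gated cells, and 32% and 2.27% kept 2.

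Strongly cycling members of like depth were compared on their own. Of the members with 8 or more UMIs of Mki67 and Top2a and no other-class markers, 21 of 25 in WT and 3 of 30 in CKO had 3 or more germinal centre genes, at median depths of 15408 and 16440.5 UMIs. Mybl1 had a UMI in 17 of these 25 WT cells and 2 of the 30 CKO cells, Rgs13 in 12 and 0, Basp1 in 20 and 4, and Bcl6 in 18 and 7. Members with the minimum of 2 UMIs had 3 or more germinal centre genes in 2 of 15 and 1 of 31. The 8-UMI limit was also set after values were seen.

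**Figure D3:**
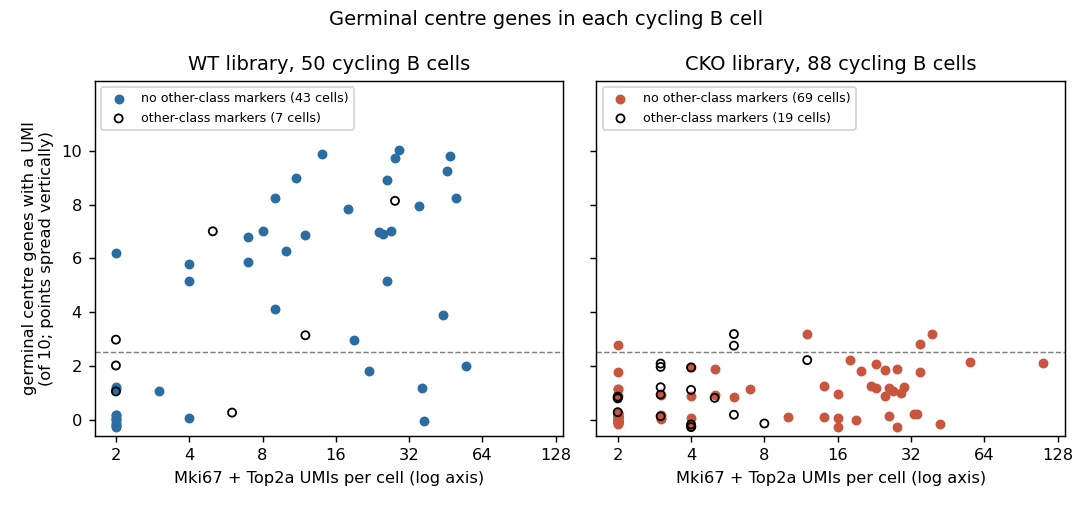
Each cycling B cell by its Mki67 and Top2a UMIs (horizontal log axis) and the number of germinal centre genes with a UMI, of 10 (vertical axis, points spread vertically for visibility), in the WT and CKO library. Open circles are cells with markers of another class, and the dashed line separates cells with 3 or more genes, of which WT has 30 of 50 and CKO 6 of 88.

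The plot of members by germinal centre genes shows WT cells reaching 10 genes and CKO cells ending at 3. The Jchain limit bears on this count. All 11 WT members with 10 to 19 Jchain UMIs had 3 or more germinal centre genes, and no CKO member had so many Jchain UMIs. Just outside the limit, 3 of 4 WT and 0 of 1 CKO cycling cells with 20 to 29 Jchain UMIs had them. With a limit of 5 UMIs, 9 of 28 WT and 5 of 87 CKO cycling cells had 3 or more of the genes, and with no limit 54 of 93 and 13 of 163. The WT share was higher under each of these limits. Jchain itself was at 249 CPM in T-gated cells of WT and 108 in those of CKO, so free Jchain RNA was also higher in the WT library, and its part in the count was not tested.

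The heavy chain of the members differed in the same cells. A cell was assigned to a constant gene with 3 or more UMIs and at least 50% of its heavy chain constant UMIs. Of 43 assigned WT members 18 led with Ighm (41.9%, 27.0 to 57.9%), the IgM gene, 11 with Igha (25.6%), the IgA gene, and 14 with an Ighg gene (32.6%, 19.1 to 48.5%), of which 10 were Ighg2b, 3 Ighg1 and 1 Ighg2c. Of 80 assigned CKO members 69 led with Ighm (86.2%, 76.7 to 92.9%), 9 with Igha (11.2%) and 2 with Ighg2b (2.5%, 0.304 to 8.74%). Switched cells were 25 of 43 (58.1%, 42.1 to 73.0%) in WT and 11 of 80 (13.8%, 7.07 to 23.3%) in CKO. Without other-class droplets they were 22 of 38 (57.9%) and 6 of 63 (9.52%). With a Jchain limit of 5 UMIs they were 6 of 23 (26.1%, 10.2 to 48.4%) and 11 of 79 (13.9%, 7.16 to 23.5%), with overlapping intervals, and with no limit, which adds Jchain-high cells, 66 of 84 (78.6%) and 81 of 155 (52.3%).

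In WT the switched members without other-class markers were those with germinal centre genes. Of 23 assigned WT members with 3 or more germinal centre genes and no other-class markers, 22 were switched (95.7%, 78.1 to 99.9%), 13 to Ighg and 9 to Igha, while all 15 assigned WT members with fewer genes led with Ighm. In CKO 54 of 59 members with fewer genes led with Ighm (91.5%), as did 3 of the 4 with 3 or more. Among assigned members with 8 or more Mki67 and Top2a UMIs and no other-class markers, 18 of 23 in WT (78.3%) and 3 of 30 in CKO were switched. Ighm in those cells was at 768 CPM in WT and 3188 in CKO, with a cell median of 1 and 34.5 UMIs, and 802 of 1898 CKO UMIs came from 1 cell.

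Free immunoglobulin RNA set a background mainly for Igha. T-gated cells led with Igha in 223 of 233 assigned cells in WT and 371 of 394 in CKO, with Ighm in 10 and 23, and with an Ighg gene in none. An Igha call in a member can therefore come from free RNA, and an Ighg call had no such background here. Among other B-gated cells Ighg led in 16 of 930 in WT (1.72%) and 10 of 3683 in CKO (0.272%), and Ighm in 68.5% and 85.4%.

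**Figure D4:**
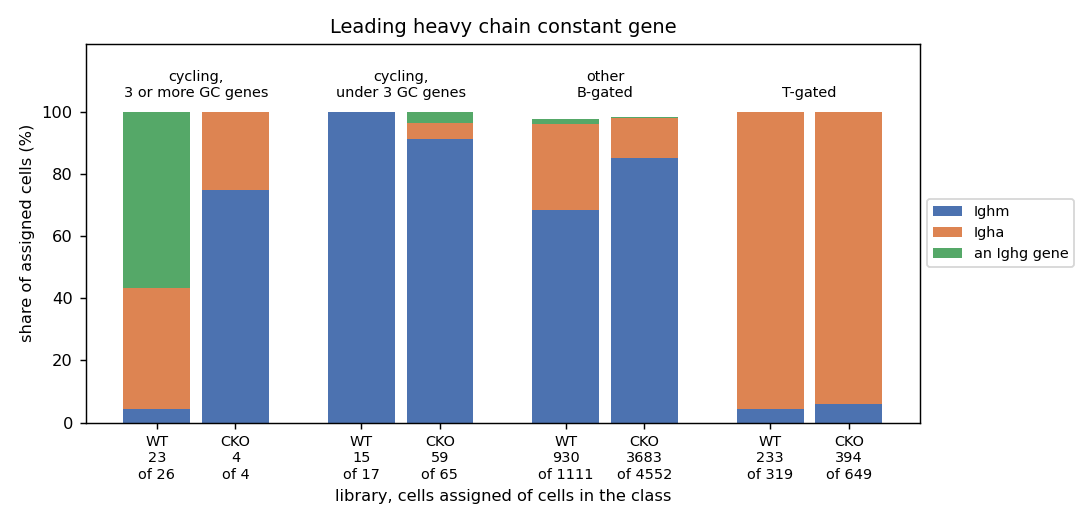
Share of assigned cells (vertical axis, %) by leading heavy chain constant gene, Ighm (blue), Igha (orange) or an Ighg gene (green), for cycling B cells with 3 or more or under 3 germinal centre (GC) genes and no other-class markers, other B-gated cells and T-gated cells of each library. Ighg is the largest part of the 23 WT cells with 3 or more GC genes, and Ighm leads in all 15 WT cells and 54 of 59 CKO cells with fewer. The gap above the bars of other B-gated cells is cells led by Ighd, the IgD gene.

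Outside the germinal centre list, 4 of the named genes with the largest CKO deficit are given by value. Hmces, which shields abasic sites in DNA and acts in class switching, was at 109 CPM in WT and 11.3 in CKO members (log2 −3.27). Eaf2, an elongation factor of germinal centre B cells, was at 112 and 13.2 (−3.08), H1fx, a linker histone variant, at 62.7 and 7.55 (−3.05, its 8 CKO UMIs in 2 cells), and Lrmp, a membrane protein of germinal centre B cells, at 181 and 37.7 (−2.26). Of 8 dark zone genes 5 were lower in CKO and 1 higher, with a median of −2.10, beside 13% and 17.2% of all genes. Foxp1, a factor of resting B cells, was the higher one (0.61), and Cxcr4, the receptor that draws cells to the dark zone, had a log2 ratio of −0.50. Among members with under 3 germinal centre genes 3 dark zone genes were read and none was called, with a median of 0.12.

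Class switch and hypermutation genes, most of which are general repair factors, were lower in 7 of 17 and higher in 1, with a median of −0.48. Of all genes 13% were lower and 17.2% higher. The lower ones of the list included the translesion polymerases Rev1 (−1.31) and Polh (−0.94) and the mismatch repair gene Msh6 (−0.88). Xrcc6, the Ku70 end-joining subunit, was the higher one (1.28). Among members with under 3 germinal centre genes 1 of 8 was higher and 1 lower, with a median of 0.33. Light zone and CD40 response genes did not lie on 1 side, with 6 of 16 higher and 2 lower and a median of 0.24. Their counts stand beside the same 17.2% of all genes higher and 13% lower. Slamf1, an adhesion receptor, was at 37.3 and 7.55 CPM (−2.31), while Nfkbia, the NF-kB inhibitor induced by CD40, was at 225 and 598 (1.41, or 1.03 without other-class droplets).

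Naive or resting B genes were mixed between the libraries. In CKO 6 of 16 were higher and 3 lower, at a median of 0.41, beside 17.2% and 13% of all genes. Without other-class droplets 7 were higher and 4 lower, at a median of 0.50, beside 14.8% and 13.2% of all genes. Ccr7, the T zone homing receptor, was at 161 and 309 CPM (log2 0.94), and Cd38, which mouse germinal centre B cells lose, at 56.7 and 155 (1.45). Bcl2, the survival factor low in germinal centre cells, was at 20.9 and 64.2 (1.62). Fcer2a, the CD23 receptor of follicular B cells, was at 71.6 and 17.0 (−2.08), and Vpreb3, a protein that binds newly made immunoglobulin chains, at 249 and 92.5 (−1.43). The D cyclins differed from each other: Ccnd2 was at 113 and 219 CPM (0.95) and Ccnd3, the D cyclin used by dark zone cells, at 86.6 and 48.1 (−0.85).

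Members with under 3 germinal centre genes and no other-class markers, 17 cells in WT and 65 in CKO, were compared on their own. Over 4987 genes read there, 21.7% were higher and 10.8% lower in CKO. Of the naive genes 2 of 16 lay higher in CKO and 3 of 16 lower, at a median of −0.14. Ccr7 was at 300.1 and 361 CPM (log2 0.27, −0.14 to 0.69) and Cd38 at 140 and 144 (0.03, −0.58 to 0.68), so neither gene differed beyond counting error among these cells. In the 26 WT members with 3 or more germinal centre genes the same genes were at 65.3 and 19.04 CPM. Bcl2 (24.2 and 87.0, 1.85, 0.54 to 3.52) and Fcer2a (58.1 and 15.96, −1.86, −3.19 to −0.56) kept their direction. Of these cells 11 of 17 in WT and 26 of 65 in CKO had the minimum of 2 Mki67 and Top2a UMIs, and the G1 to S and histone lists had medians of 0.80 and 1.03 there.

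Interferon-gamma response genes were higher in CKO members. Of 24 genes read, CKO was the higher in 20 and the lower in 1, at a median of 1.32, and without other-class droplets 18 of 22 were higher, with a median of 1.29, where 14.8% of all genes were higher. With all members 17.2% of all genes were higher. Among members with under 3 germinal centre genes 13 of 22 were higher and none lower, with a median of 0.65, where 21.7% of all genes were higher. Other B-gated cells had the same direction, with 12 of 25 higher, none lower and a median of 0.56, where 8.85% of all genes were higher. Without other-class droplets 14 of those cells' 25 genes were higher, at a median of 0.62, beside 5.71% of all genes.

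Gbp2, an interferon-induced GTPase of cell-autonomous defence, was at 40.3 CPM in WT and 216 in CKO members (log2 2.42, 1.84 to 3.06), with a UMI in 13 of 50 and 50 of 88 cells, and at 44.6 and 114 in other B-gated cells. Among members with under 3 germinal centre genes it was at 62.9 and 164 (1.38, 0.55 to 2.33). Gbp7, of the same family, was at 46.3 and 189 (2.03), with a UMI in 10 and 57 cells, and at 106 and 196 among members with under 3 germinal centre genes (0.88, 0.22 to 1.60). The CKO level of these 2 GTPases was the higher one in all members, in those with under 3 germinal centre genes and in other B-gated cells, where Gbp7 was at 75.1 and 151. In T-gated cells Gbp7 was lower in CKO, at 169 and 140.

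Iigp1, an immunity-related GTPase, had no UMI in WT members and was at 60.4 CPM in CKO members, in 23 cells. With the floor of 3 UMIs in place of 0, it was higher by 3.75 on the log2 scale (lower limit 3.41). Of its CKO UMIs 50% lay in other-class droplets. Without them it was at 39.95 CPM in 13 cells, higher by 2.94 with the same floor (lower limit 2.55). Igtp, of the same family, was at 11.9 and 56.6 (2.25), and Gbp5, a GTPase that promotes inflammasome assembly, at 11.9 and 81.1 (2.76), with ratios of 2.33 and 2.95 without other-class droplets. Ciita, the class II transactivator, was the 1 lower gene, at 127 and 81.1 (−0.64).

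Cxcl9 and Cxcl10, chemokines that recruit T cells, were at 16.4 and 142 and at 43.3 and 226 CPM. Without other-class droplets Cxcl10 was at 22.6, all from 1 WT cell, and 136, and Cxcl9 at 1.74 and 2.50, so Cxcl9 lay almost wholly in the removed droplets. NF-kB and feedback genes were higher in 8 of 14 read and lower in none, with a median of 0.73, or 6 of 14 and 0.50 without other-class droplets. The shares of all genes that were higher were 17.2% and 14.8% in these readings. Nfkbie, an inhibitor of NF-kB, was at 49.3 and 114 (1.21, or 1.23 without other-class droplets), and Rel, the NF-kB subunit of activated B cells, at 387 and 622 (0.69, or 0.97). Type I interferon genes were higher in 11 of 23, with a median of 0.43, and in 5 of 19, with a median of 0.14, without other-class droplets. Their counts stand beside the same 17.2% and 14.8% of all genes. In cells holding under 3 germinal centre genes and no other-class markers, the type I median was −0.04. CKO exceeded WT by 1.5-fold there for 4 of 18 type I genes, and WT exceeded CKO for 1. For all genes these shares were 21.7% and 10.8%, so no type I excess stood out in these cells.

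Necroptosis genes, the pathway named in the title of the series, were higher in 5 of 10 read and lower in none, with a median of 0.54, and in 3 of 9, median 0.52, without other-class droplets. Over all genes 17.2% and 14.8% were higher in these readings. Ripk1, a kinase at the branch between survival and death, was at 19.4 and 55.7 CPM (log2 1.52, 0.64 to 2.51, or 1.72 without other-class droplets). Ripk3, the kinase that commits a cell to necroptosis, was at 13.4 and 14.2 (0.08, −1.21 to 1.45). Cflar, which restrains both death routes, was at 47.8 and 125 (1.38), and without those droplets at 36.6 and 61.2 (0.74, −0.02 to 1.55).

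Before thinning, cholesterol synthesis genes were lower in CKO members. Of 13 read 9 were lower and none higher, with a median of −1.19, and without other-class droplets 8 of 10, with a median of −1.50. Over all genes 13% and 13.2% were lower in these readings. Idi1, an isomerase of the pathway, was at 73.1 and 22.6 CPM (−1.69), Cyp51, a sterol demethylase, at 118 and 45.3 (−1.38), and Hmgcs1, which makes its early precursor, at 59.7 and 20.8 (−1.52). Other B-gated cells had 7 of 18 genes lower, at a median of −0.53, where 6.73% of all genes were lower. Among members with under 3 germinal centre genes 5 of 6 read were lower, with a median of −1.02, beside 10.8% of all genes. The direction of the median was lost when each cell was thinned to 2000 UMIs, where it was 0.49.

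Oxidative phosphorylation genes did not differ by 1.5-fold in either direction in any of 26 read, with a median of 0.07. MYC and ribosome biogenesis genes were higher in 2 of 24 and lower in 1 (median 0.08), and one-carbon and nucleotide synthesis genes in 2 and 2 of 22 (0.10). Immediate early genes were lower in 9 of 16 and higher in none without other-class droplets, with a median of −0.74. The share of all genes that were lower there was 13.2%. Fos, an AP-1 subunit, was at 199 and 120 CPM in all members (−0.73).

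**Figure D5:**
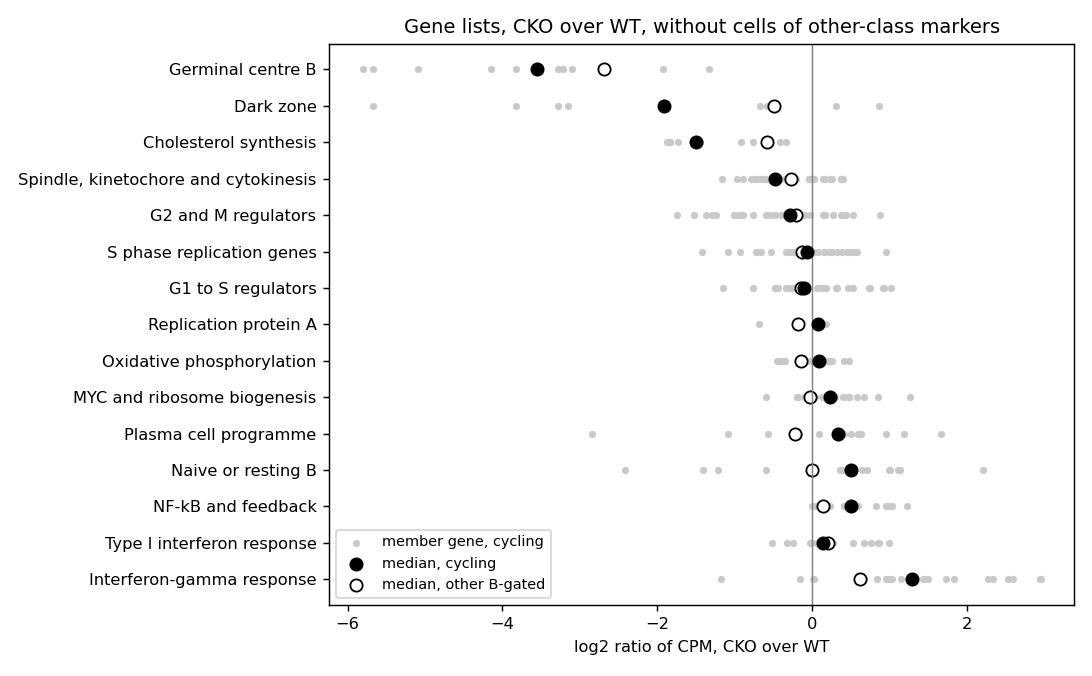
Log2 ratio of CPM, CKO over WT (horizontal axis), for 15 gene lists (vertical axis) without cells of other-class markers. Grey points are member genes in cycling cells, filled circles their medians and open circles the medians in other B-gated cells, and the germinal centre list lies furthest left at −3.56 and the interferon-gamma list furthest right at 1.29.

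The plot of lists between libraries shows the cycle lists between the germinal centre and interferon-gamma lists, with G1 to S and S phase near 0 and the mitotic lists lower. Without other-class droplets the G1 to S median was −0.11, S phase −0.06, G2 and M −0.29 and the spindle list −0.48. Spindle genes were lower in 12 of 47 and higher in none. With all members they were lower in 25 of 47, and G2 and M regulators in 14 of 32 with 1 higher. Over all genes 13% were lower with all members and 13.2% without other-class droplets. Among members with under 3 germinal centre genes the counts went the other way. Spindle genes there were higher in 16 of 43 and lower in 1, with a median of 0.30. G2 and M regulators were higher in 10 of 27 and lower in 2, with a median of 0.48, beside 21.7% of all genes higher. In all members Plk1, the mitotic kinase, was at 43.3 and 12.3 CPM (−1.82). Cks2, a cyclin-dependent kinase subunit, was at 228 and 84.9 (−1.43), and Ccnb1, the mitotic cyclin, at 61.2 and 24.5 (−1.32). Pcna, the replication clamp, was at 285 and 352, and Mcm3, a helicase subunit, at 151 and 201. A smaller part of CKO members lay above the 99th percentile of their library's other B-gated cells, 35 of 88 against 30 of 50 in WT, where that percentile was 0.469% in CKO and 0.558% in WT, and the part of this in the mitotic lists was not tested.

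Rpa1 (chr11:75298166-75348324, minus strand), the gene lost in the study, had 43 UMIs in WT and 68 in CKO cycling B cells, or 64.2 CPM in each, a log2 ratio of −0.00 (−0.57 to 0.59). A UMI was present in 23 of 50 and 30 of 88 members. In other B-gated cells Rpa1 was at 27.9 and 24.4 CPM, and in cycling T-gated cells at 76.2 and 49.8. The deleted exons are not given, and a 3′ tag outside them checks nothing about the allele. Rpa2, the middle subunit, was at 50.7 and 49.1 (−0.05), and Rpa3, the small subunit, at 80.6 and 43.4 (−0.89, −1.49 to −0.30), a direction that turned to 0.49 after thinning to 2000 UMIs. Replication stress and repair genes were lower in 6 of 25 and higher in 1, with a median of −0.22, where 13% of all genes were lower and 17.2% higher. Without other-class droplets 4 of 22 were lower and 3 higher, with a median of −0.05. Brca2, a homologous recombination mediator, was at 47.8 and 19.8 (−1.27), and H2afx, the histone marked at breaks, at 303 and 145 (−1.06).

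The largest CKO excess over WT in all members was in macrophage genes of the other-class droplets. Lyz2, the myeloid lysozyme, was at 80.6 and 989.8 CPM with 99.3% of CKO UMIs in those droplets, Cd14, the endotoxin co-receptor, at 28.4 and 432 with 99.1%, and Il1rn, the interleukin-1 receptor antagonist, at 1.49 and 194 with 94.7%. Ccl5, a chemokine of NK and T cells, was at 23.9 and 339 with 98.1%, and had a log2 ratio of −0.48 without those droplets. Among genes that stayed high without them, Il1b was at 8.71 and 155 CPM (4.15), beside 28.4 and 113 in other B-gated cells without such droplets and 119 and 2425 in T-gated cells. Sub1, a transcription coactivator, was at 313 and 814 (1.38), Sdc4, a heparan sulfate proteoglycan, at 24.4 and 97.4, and Bcl2 at 17.4 and 79.9 (2.20). Il1b is a myeloid cytokine whose CKO UMIs lay to 93.4% in the removed droplets.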

How the data were processed

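The files hold raw UMI counts per gene and cell barcode, which the authors made with Cell Ranger 6.0.1 per the file headers; Seurat 3.2.3, mm10 and an earlier Cell Ranger (5.0.0) appear in the submitters' processing notes. The libraries were made with the 10x 3′ chemistry, per the labels' protocols. How cells were called is not stated. From the counts, UMIs were summed per library and class, divided by the class total (CPM, UMIs per 1000000) and compared as log2 ratios with conditional exact 95% intervals (scipy 1.17.1); shares have exact Clopper-Pearson intervals. Intervals and floors cover counting error only. The ratios were tested on simulated data. With 1 library per group there was no test. A gene was read with 20 or more UMIs in sum and called at 1.5-fold. Doublets were scored with Scrublet in scanpy 1.11.5, which marked 1 WT cell (0.0342%) and 213 CKO cells (1.91%), 3 of them members, and were kept; the caller did not work at these shares in WT, and mixed droplets were read from marker lists instead.

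Members, rule and 45 gene lists (705 of 707 symbols matched) were chosen with earlier results of these data known. Genes named between libraries had 30 or more UMIs, 50 CPM in the higher library and a UMI in 10 or more of its cells, ranked by the interval bound nearest 0; those named between cycling and other cells had 50 or more UMIs and 50 CPM, ranked by the smaller of both libraries' ratios. Up to 4 members of each list at either end were named; others named for the text were chosen after their values were seen. Genes are from GENCODE vM21. Values of some single genes of the lists are not reported here, though list counts and medians include them.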

Additional observations from a re-analysis of the deposited data

Results flagged for a closer look

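For 5 genes the log2 ratio of cycling over other B-gated cells lay on opposite sides of 0 in the libraries, with both intervals clear of 0; the difference itself was not tested. Ccr6, a chemokine receptor of gut B cells, had −0.75 in WT and 0.32 in CKO. Gbp7, an interferon-induced GTPase, had −0.70 and 0.32, and Iigp1, an immunity-related GTPase, −0.95 and 0.64. The WT value of Iigp1 was set at the floor, with 0 UMIs in members. Nfkbie, an NF-kB inhibitor, had −0.56 and 0.65. Zbtb20, a transcription factor of innate-like and memory B cells, had 0.67 and −0.64. Without other-class droplets 3 of the 5 had an interval that reached 0: Gbp7 in WT (−1.07 to 0.06), Iigp1 in CKO (0.19, −0.37 to 0.71) and Nfkbie in CKO (0.20, −0.20 to 0.57).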

How the results depend on the processing

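No paired analysis was possible because each group is 1 library. Of 188 main-result values under alternatives 164 kept their direction and size, and of 468 values for 43 named genes 401 did. Thinning to 2000 UMIs gave 419 higher and 300 lower genes, a germinal centre median of −2.30 and a cholesterol median of 0.49, on the other side of 0. Reading genes from 10 UMIs gave 1394 lower genes, and from 50 UMIs 558 higher and 429 lower. A Jchain limit of 5 UMIs gave a germinal centre median of −1.57 and 26.1% switched WT members. The cycling share was 11.3% in WT and 7.20% in CKO with 1 UMI of Mki67 and Top2a, 2.93% and 1.03% with 4, 2.82% in WT with the Jchain limit of 5, and 2.54% in CKO with 1 UMI after thinning to 1000. With no Jchain limit, chosen after seeing the data, it was 6.59% and 3.19%, and switched members were 78.6% and 52.3%. The share of members with 3 or more germinal centre genes was 82.4% in WT with 4 UMIs of the pair, 10.0% in WT and 0% in CKO after thinning to 1000 UMIs, and 1.14% in CKO without Basp1 and Fas. Median-of-ratios scaling gave 2581 lower genes in CKO cycling over other cells. Single genes that changed side were Scimp (0.83 with the Jchain limit of 5), Rpa3 (0.49) and Fas (0.98) after thinning to 2000 UMIs, and Ccl5 (−0.48 without other-class droplets). The cause was not tested. Depth limits low genes most: a gene absent from the CKO members could reach 3 UMIs unseen.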
